A study of Homo sapiens with 9 samples.

Results

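The genes described here are 10 replication licensing genes, namely the MCM helicase subunits MCM2 to MCM7, the replication factor MCM10, and the loading factors ORC1, CDC6 and CDT1. They were taken by name from the table of H460-ERT2-RUNX3-MT(K94/171R) cells, and all 10 were found among its 19869 genes. Licensing marks each origin of replication for use in the coming S phase. The origin recognition complex, of which ORC1 is the largest subunit, binds the origin, CDC6 and CDT1 join it, and together they load rings of MCM2 to MCM7 onto DNA. The rings are switched on in S phase with the help of MCM10 and the kinase CDC7, while CDT1 is degraded or held by geminin so that no origin is licensed again. Many licensing genes are known targets of E2F factors, and their mRNA is usually highest around entry into S phase.

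H460 is a human large cell lung cancer line established from a pleural effusion, with an activated K-RAS and with RUNX3 inactivated. The study sequenced mRNA of H460-ERT2-RUNX3-MT(K94/171R) cells, called K94/171R cells here, at 0, 8 and 16 h, beside H460 cells (named H460-vec in the study's text) and H460-ERT2-RUNX3 WT cells at the same times, with 9 libraries in all and 1 per line and time. ERT2 is a ligand-binding domain of the estrogen receptor that keeps the fused RUNX3 out of the nucleus until 4-hydroxytamoxifen (4-OHT) is added, and in K94/171R the lysines at both named positions of RUNX3 were changed to arginine. All cells were starved of serum for 24 h. The 8 and 16 h cells then received 10% serum together with 1 μM 4-OHT, and no library with serum alone was analysed here, so the responses to serum and to 4-OHT cannot be told apart. The lines are stable transfectants, and the promoter that drives the fusion is not given in the sources used here.

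Values are FPKM, fragment counts scaled by transcript length and by the size of the library. FPKM summed to 603652, 588309 and 566164 at 0, 8 and 16 h in K94/171R cells, and 10961 to 11140 genes had FPKM of at least 1. The steps between the lowest values put the depth of the 8 and 16 h libraries at 1.00 and 0.985 of the 0 h library, on 16 and 17 genes at the most frequent ratio, and the number of reads is unknown. With 1 library per time there is no replicate error, no test was run, and every difference is one between single libraries. Keratins KRT8, KRT18 and KRT19 stood between FPKM 309 and 698, whereas the epithelial markers EPCAM and CDH1 were at or below 0.313. The immune marker PTPRC stood at or below 0.0155, and SFTPB, CD3E, LUM and CDH5 were listed at 0. Of the same lists, the macrophage and lysosome gene CD68 stood at 56.9, 47.2 and 56.1 at 0, 8 and 16 h and the collagen gene COL3A1 at 6.17, 5.605 and 8.26. RUNX3 had FPKM 2.12, 0.712 and 2.11 at 0, 8 and 16 h and ESR1, whose ligand-binding domain ERT2 derives from, 3.22, 2.04 and 3.61. The table holds no line without the fusion, so these levels do not check the label.

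A change is log2 of the later over the earlier FPKM after 0.05 was added to each, which understates changes of low genes. In K94/171R cells 10 of 10 licensing genes were higher at 8 h than at 0 h, by a median of 0.50 on the log2 scale. All 10 were lower at 16 h than at 8 h, by a median of -1.0, and 9 of 10 ended below their 0 h level, with a median of -0.45. CDT1 was the exception and hardly moved. The same medians over every gene that reached FPKM 1 were 0.0060, -0.016 and -0.011. Of those genes, 50.8% were higher at 8 h than at 0 h. The share that was lower at 16 h was 52.0% against 8 h and 51.8% against 0 h. In a whole culture, a smaller share of cells at the stage that uses these genes and less mRNA per cell cannot be told apart.

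**Figure D1:**
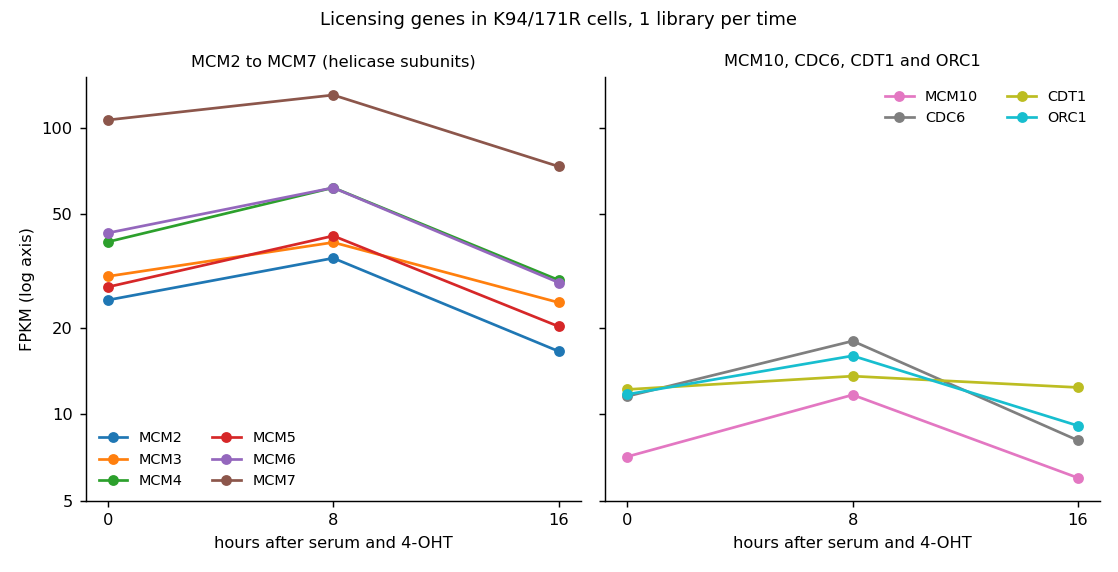
FPKM (log axis) against hours after serum and 4-OHT for MCM2 to MCM7 on the left and for MCM10, CDC6, CDT1 and ORC1 on the right, with 1 point per library. All lines peak at 8 h, and all but that of CDT1, which stays between FPKM 12.2 and 13.6, end below their start.

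Because 9 of the 10 genes moved together, the sequences before their transcription starts were read from RefSeq (build GRCh38.p14), in windows of 300 bases from 250 before to 50 after the start. Windows were found for 8 of the 10 genes, with 3 for MCM7, and none was found for MCM4 and MCM5. As E2F words, the runs TTTGGCG and then TTTCGCG, followed by TTTCCCG and lastly by TTTGCCG, were searched on both strands, and neighbouring matches can overlap, as in a palindromic site. At least 1 was found in 7 of the 8 genes, all but ORC1, and in 8 of their 10 windows, against 8.67% of 35116 windows of all genes and 16.7% of genes that reached FPKM 1. Shown here are 180 bases, from 150 before the start to 30 after it, for MCM6, which holds 4 matches in its window, for MCM2, MCM7 and CDC6, and for CDT1, the gene that hardly moved. Capitals mark the E2F words.
MCM6, chr2:135876414-135876593 (minus strand): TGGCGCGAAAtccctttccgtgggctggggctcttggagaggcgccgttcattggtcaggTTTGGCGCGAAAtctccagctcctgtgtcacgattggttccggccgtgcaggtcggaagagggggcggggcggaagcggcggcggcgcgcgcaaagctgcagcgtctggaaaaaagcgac
MCM2, chr3:127598261-127598440 (plus strand): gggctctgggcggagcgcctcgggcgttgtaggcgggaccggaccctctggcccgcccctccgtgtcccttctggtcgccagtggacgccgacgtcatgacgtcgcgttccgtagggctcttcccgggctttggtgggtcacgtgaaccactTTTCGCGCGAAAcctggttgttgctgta
MCM7, chr7:100101368-100101547 (minus strand): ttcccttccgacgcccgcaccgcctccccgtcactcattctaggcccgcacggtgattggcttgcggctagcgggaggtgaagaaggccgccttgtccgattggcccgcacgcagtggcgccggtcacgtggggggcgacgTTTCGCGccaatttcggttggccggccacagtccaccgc
CDC6, chr17:40287729-40287908 (plus strand): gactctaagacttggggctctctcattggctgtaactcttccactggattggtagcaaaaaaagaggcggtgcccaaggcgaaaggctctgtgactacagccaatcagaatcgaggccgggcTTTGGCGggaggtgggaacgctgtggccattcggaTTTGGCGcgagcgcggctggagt
CDT1, chr16:88803639-88803818 (plus strand): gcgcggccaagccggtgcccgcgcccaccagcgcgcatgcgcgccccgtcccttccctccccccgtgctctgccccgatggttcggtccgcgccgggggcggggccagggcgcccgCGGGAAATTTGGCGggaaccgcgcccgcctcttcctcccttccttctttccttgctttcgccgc

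In MCM6 the E2F words form 2 pairs that overlap on opposite strands, of which the first begins just before the stretch printed. In CDC6, with the start counted as 0, a match runs from -28 to -22 and another from 7 to 13. CDT1 also holds 2 matches, side by side from -34 to -21, so a match was found both in genes that fell from 8 to 16 h and in the gene that stayed near its level.

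Over other genes with FPKM of at least 1 and a window, 1545 with an E2F word had a median log2 change of -0.056 from 8 to 16 h and 7683 without one had -0.016. The share that fell by at least 1 was 1.17% with the word and 1.29% without it. The words of RUNX factors, ACCACA and ACCGCA, were found in 3 of the 8 genes, namely MCM2, MCM7 and MCM10, which is 3 of their 10 windows, against 19.6% of all windows and 23.5% of genes that reached FPKM 1. The word CCAAT was found in 6 of the 8 genes and 8 of their 10 windows, against 34.6% of all windows and 43.5% of genes that reached FPKM 1. A match is only an exact run of letters, and neither binding nor its use was measured. Near matches were not counted, and the ORC1 window holds attggcg, which differs from TTTGGCG by 1 base.

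**Figure D2:**
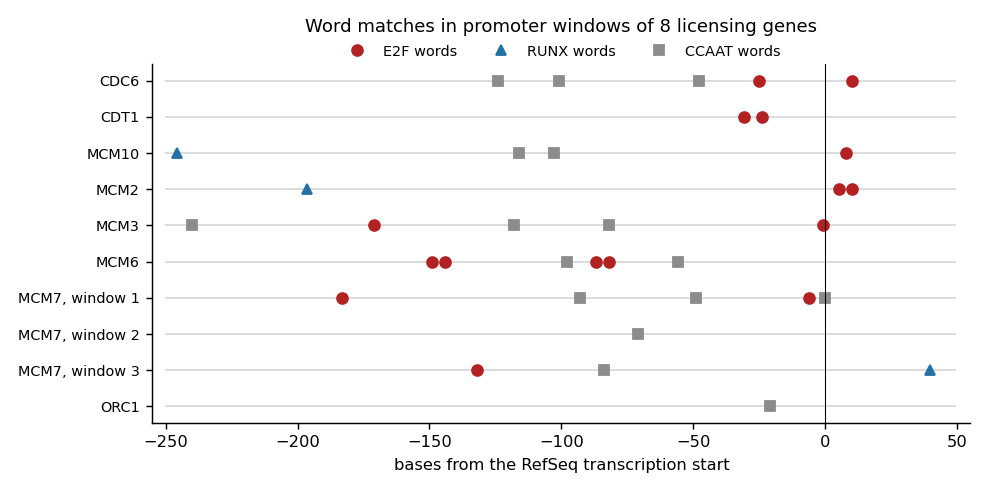
Centres of matches to E2F words (red circles), RUNX words (blue triangles) and CCAAT (grey squares) in bases from the RefSeq transcription start, 1 row per promoter window. An E2F word lies close to the start, between -34 and 13, in CDC6, CDT1, MCM10, MCM2, MCM3 and the first window of MCM7. MCM3 and that window of MCM7 hold a further one from -174 and from -186, the words of MCM6 lie between -152 and -79, and ORC1 holds none.

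The factors that bind origins and load the helicase differed among themselves. ORC1 (ENSG00000085840, chromosome 1 of hg19, 52838501 to 52870095) stood at FPKM 11.8, 16.0 and 9.13 at 0, 8 and 16 h. Its level was thus highest at 8 h and lowest at 16 h, with log2 changes of 0.44 from 0 to 8 h and -0.81 from 8 to 16 h.

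CDC6 (ENSG00000094804, chromosome 17, 38444131 to 38460909), the ATPase that joins the origin recognition complex and brings in the helicase, stood at FPKM 11.6, 18.03 and 8.12. Of the 10 genes it had the largest fall, -1.15 on the log2 scale from 8 to 16 h, and only 0.851% of 11280 genes with FPKM of at least 1 changed by a lower value. Its 16 h level was 0.702 times that at 0 h.

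CDT1 (ENSG00000167513, chromosome 16, 88870197 to 88875666), the loader that is destroyed once S phase begins, stood at FPKM 12.2, 13.6 and 12.4. Its promoter window holds E2F words, as that of CDC6 does, and its log2 changes of 0.15 and -0.13 lay in the middle of all genes, with 66.4% and 37.8% of them lower. GMNN, which encodes geminin, the inhibitor of CDT1, stood at 28.6, 35.7 and 27.3, so that the ratio of CDT1 to GMNN was 0.427, 0.381 and 0.455. At 0 h the FPKM of CDT1, ORC1 and CDC6 lay between 11.6 and 12.2. At 8 h CDC6 was the highest of these 3 genes and at 16 h the lowest, so that their order differed between the times.

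The subunits of the helicase ring moved together. MCM7 (ENSG00000166508, chromosome 7, 99689856 to 99699563) was the highest of them at every time, with FPKM 106, 130 and 73.2. Its log2 changes were 0.29 and -0.83, the smallest rise of the ring subunits from 0 to 8 h.

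MCM6 (ENSG00000076003, chromosome 2, 136597196 to 136634013) stood at FPKM 42.9, 61.7 and 28.8. MCM4 (ENSG00000104738, on chromosome 8) stood at 40.0, 61.8 and 29.4. These subunits could hardly be told apart in level, and their order at 0 h was the opposite of that at 8 and 16 h. From 8 to 16 h MCM6 changed by -1.10 and MCM4 by -1.07 on the log2 scale.

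MCM3 (ENSG00000112118, chromosome 6, 52128812 to 52149679) stood at FPKM 30.3, 39.8 and 24.6. MCM5 (ENSG00000100297, chromosome 22, 35796127 to 35821424), which forms the gate of the ring with MCM2, stood at 27.8, 41.9 and 20.3. MCM3 was above MCM5 at 0 and 16 h and below it at 8 h. The fall of MCM3 from 8 to 16 h, -0.69, was the smallest in the ring, while that of MCM5 was -1.05.

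MCM2 (ENSG00000073111, chromosome 3, 127317253 to 127341279) was the lowest subunit at every time, with FPKM 25.1, 35.1 and 16.6. It had the lowest 16 h level relative to 0 h of the 10 genes, 0.663 times, or -0.59 on the log2 scale. The FPKM of the 6 subunits added up to 272, 370 and 193. The highest subunit was 4.24, 3.70 and 4.41 times the lowest, and MCM7 held 39.0%, 35.1% and 38.0% of the sum, so the proportions within the ring moved less than its total.

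MCM10 (ENSG00000065328, chromosome 10, 13203558 to 13253110), which acts after loading and is no part of the ring despite its name, was the lowest of the 10 genes in each library. It stood at FPKM 7.13, 11.7 and 6.01. It had the largest rise of the 10 genes from 0 to 8 h, 0.71, above 96.2% of 11252 genes, and changed by -0.96 from 8 to 16 h.

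None of the 10 genes reached a rise of 1 on the log2 scale from 0 to 8 h, against 1.27% of every gene that reached FPKM 1, and none fell by 1, against 2.49%. From 8 to 16 h, 5 of 10 fell by at least 1, namely CDC6, MCM6, MCM2, MCM4 and MCM5, against 1.53% of all genes, and 0 rose by 1, against 2.66%. MCM5 at -1.05 lay just inside this threshold and MCM10 at -0.96 just outside it, and 4 fell by at least 1 when the libraries were scaled to the same FPKM sum. From 0 to 16 h none of the 10 passed 1 in either direction, against 1.27% of all genes that fell and 1.47% that rose. By position among all genes, 9 of 10 lay between the lowest 0.851% and 4.74% from 8 to 16 h, and between the lowest 3.92% and 19.7% from 0 to 16 h. None of the 10 fell by 2 from 8 to 16 h, against 0.115% of all genes.

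The changes from 0 to 8 h and from 8 to 16 h share the 8 h library, so a gene that is high there is placed as risen and then as fallen. Of 1939 other genes whose change from 0 to 8 h lay between 0.29 and 0.71, the range of the 9 members without CDT1, the median change from 8 to 16 h was -0.36 and 2.11% fell by at least 1. The 5th percentile of these genes was -0.85, and MCM3, ORC1 and MCM7 lay above it. The change from 0 to 16 h leaves the 8 h library out.

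**Figure D3:**
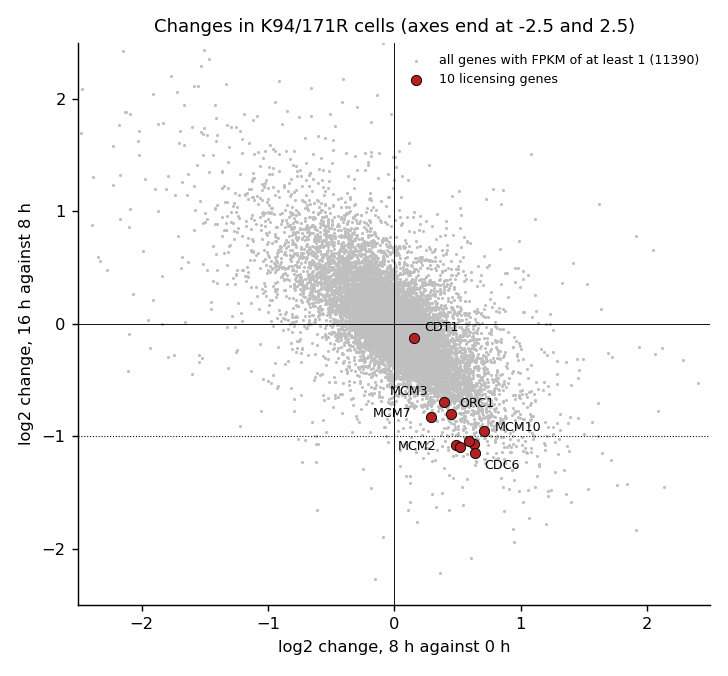
Log2 change from 8 to 16 h against log2 change from 0 to 8 h for genes with FPKM of at least 1 in K94/171R cells (grey) and for the 10 licensing genes (red), with a dotted line at -1. Except for CDT1, the licensing genes sit low in the cloud, with changes from 8 to 16 h between -1.15 and -0.69.

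Reads of overlapping genes limit some values. MCM7 shares 392 of its 4960 exon bases with AP4M1 on the opposite strand, and MIR25, MIR93 and MIR106B lie within it. MCM2 shares 1113 of 4715 exon bases with a long non-coding RNA on the opposite strand. The library kit keeps the strand, but whether counting used it is not given in the sources used here. The other 8 genes overlapped no annotated gene.

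Other genes of DNA replication were read from 6 lists, none of which holds a member of the set, and their 66 genes had a median log2 change of 0.29 from 0 to 8 h and -0.29 from 8 to 16 h. From 0 to 8 h, 0 of the 66 passed 1, against 1.27% of all genes that rose and 2.49% that fell. From 8 to 16 h, 3 of the 66 fell by at least 1, against 1.53% of all genes, and 0 rose by 1, against 2.66%. At these shares a short list with none past 1, as several below, is not set apart from other genes. GINS2, a subunit of the GINS complex that joins the helicase to the fork, went from FPKM 7.04 to 12.5 and 5.42, a change of -1.19 from 8 to 16 h. RPA2, a subunit of the protein that coats unwound DNA, changed by -1.06, and TIPIN, a fork protection factor, by -1.03. These 3 genes were also higher at 8 h than at 0 h, by 0.82, 0.49 and 0.56.

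From 8 to 16 h each of the remaining origin recognition subunits fell short of the change of ORC1, -0.81, while from 0 to 8 h ORC5 exceeded its 0.44. The median of ORC2 to ORC6 was 0.39 from 0 to 8 h and -0.28 from 8 to 16 h, and 0 of 5 passed 1. ORC5 had the largest rise and the largest fall of them, 0.60 and -0.53, ORC3 changed by 0.06 from 8 to 16 h, and ORC4 had the smallest rise from 0 to 8 h, 0.09.

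Among 8 relatives and binding proteins of the MCMs, 7 were higher at 8 h than at 0 h, against 50.8% of all genes. All were lower at 16 h than at 8 h, against 52.0%, and the medians were 0.35 and -0.44 with none past 1. MCMBP, which binds MCM subunits outside the ring, stood at FPKM 40.4, 57.4 and 38.6. BRPF3, a partner of the histone acetyltransferase KAT7 that acts at origins, had the largest fall from 8 to 16 h, -0.72. NASP, a histone chaperone, was the one gene of this list that was lower at 8 h than at 0 h.

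Of 10 genes of the turnover of CDT1 and CDC6, none passed 1, and the medians were 0.08 and -0.22. DTL, the substrate receptor through which CDT1 is degraded in S phase, stood at FPKM 20.5, 31.4 and 18.4 and had the largest fall of this list from 8 to 16 h, -0.76. CUL4A, the scaffold of the same ligase, had its largest rise from 0 to 8 h, 0.74, from FPKM 55.1 to 91.8. CCNF, which targets CDC6, changed by -0.22 and 0.50, and FZR1, an activator of the anaphase-promoting complex, by -0.21 and 0.53.

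The genes of helicase activation and firing moved little as a list, with medians of 0.14 and -0.14 over 15 genes and 1 of 15, GINS2, past -1 from 8 to 16 h (1.53% of all genes). CDC45, which forms the active helicase with the ring and GINS, stood at FPKM 17.3, 17.8 and 16.2. TICRR, which helps to bring CDC45 to the ring, had the lowest change from 0 to 8 h, -0.29. From 8 to 16 h DBF4B, an activator of CDC7, had the highest change, 0.48.

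At the fork, 12 polymerase and primase genes had medians of 0.33 and -0.29 with none past 1. POLD1 and POLD4, subunits of the same polymerase, differed: POLD1 was higher at both later times (FPKM 9.91, 15.6 and 17.1), and POLD4 lower at 8 h (79.0, 64.8 and 88.4). POLE3 had the largest fall of the list from 8 to 16 h, -0.88, and POLE4 from 0 to 16 h, -0.46. The 16 genes of the clamp, its loader, RPA, flap processing and fork protection had medians of 0.32 and -0.41, with 2 of 16, RPA2 and TIPIN, past -1 from 8 to 16 h (1.53% of all genes). FEN1, the flap nuclease, had the largest rise from 0 to 8 h, 0.57, and RPA3 the largest fall, -0.63. PCNA, the sliding clamp, stood at FPKM 279, 265 and 248, and LIG1, the ligase that joins Okazaki fragments, changed by -0.18 and 0.41.

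**Figure D4:**
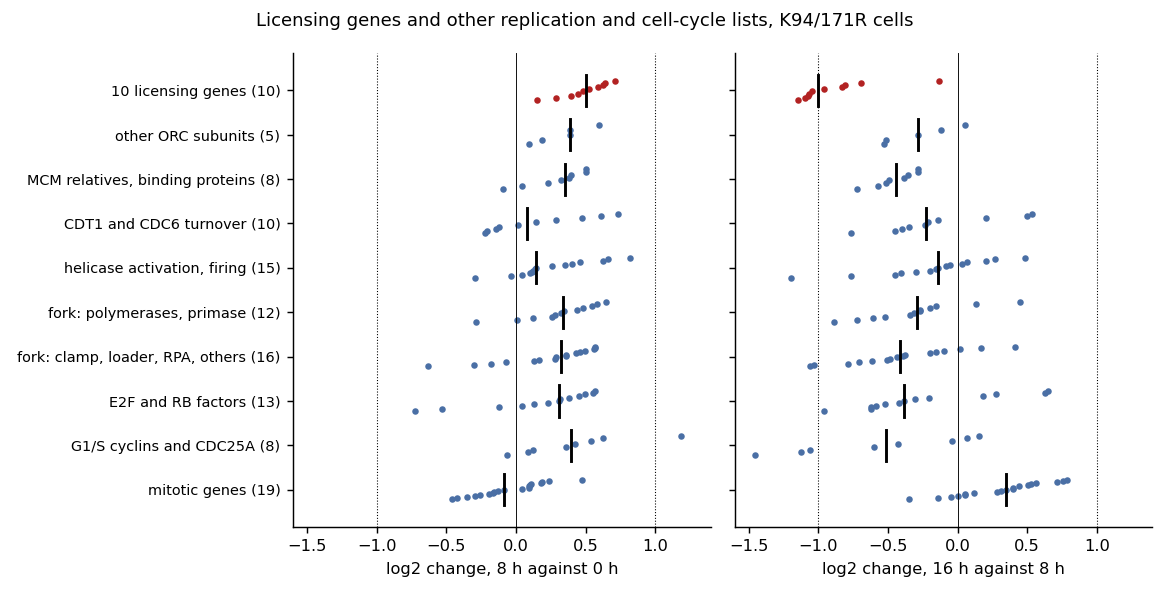
Log2 change from 0 to 8 h (left) and from 8 to 16 h (right) of each gene of the licensing set (red) and of 9 further lists (blue) in K94/171R cells, with bars at the medians and dotted lines at -1 and 1. The licensing genes have the highest median on the left, 0.50, and the lowest on the right, -1.0. The medians of the mitotic genes, -0.09 and 0.35, have the opposite signs. Of these genes 9 of 19 are above 0 on the left and 16 of 19 on the right, against 50.8% and 48.0% of all genes.

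The genes nearest to the median pair of changes of the 10 members, by Euclidean distance over the changes from 0 to 8 h and from 8 to 16 h, were taken from 6816 genes with FPKM of at least 10 in the highest library. They were SLBP at a distance of 0.011, PRPF19 at 0.020, SLC1A5 at 0.032, EBNA1BP2 at 0.045 and RPA2 at 0.059. SLBP, which binds the stem-loop of histone mRNAs, stood at FPKM 31.9, 45.1 and 22.7. PRPF19 is a splicing factor, SLC1A5 a glutamine transporter and EBNA1BP2 a factor of ribosome assembly. Such likeness rests on 3 libraries.

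The table of H460 and H460-ERT2-RUNX3 WT cells gives locus identifiers without symbols. The study's supplementary data pair these with symbols, but only the first part of that listing was available here. That part holds none of the 10 members, so whether the rest names them is not known here. From it, 8 genes of the further lists could be read in all 9 libraries. The pairs read here are 1144 loci of chromosome 1 with neighbouring identifiers, 787 of them above 0 in H460 cells at 0 h. They do not cover the chromosome in full, since ORC1 lies on it and is not among them. The 8 genes thus entered by identifier and by the lists. Levels are compared within a table only.

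DTL stood at FPKM 28.2, 28.7 and 22.5 at 0, 8 and 16 h in H460 cells. In H460-ERT2-RUNX3 WT cells it stood at 28.4, 15.0 and 10.3. In K94/171R cells its level was highest at 8 h, in H460 cells it hardly differed between 0 and 8 h, and in WT cells it was lower at each later time. From 0 to 16 h its log2 change was -1.46 in WT, -0.33 in H460 and -0.15 in K94/171R cells.

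CDC7, the kinase that phosphorylates the loaded ring, stood at FPKM 17.95, 13.8 and 13.4 in H460 cells and at 16.9, 12.7 and 3.70 in WT cells. In K94/171R cells it stood at 11.5, 12.6 and 11.0. The WT library at 16 h was thus the low one, with a change from 0 to 16 h of -2.18 against -0.42 in H460 and -0.06 in K94/171R cells.

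USP1, a deubiquitinase that acts on PCNA, did not have its lowest change in WT cells. From 0 to 16 h USP1 changed by -0.62 in H460, -0.33 in WT and -0.16 in K94/171R cells. NASP changed by -0.32, -0.53 and -0.37 in the same order of lines, lowest again in WT cells. Its WT level was lower at 8 h (FPKM 38.1) than at 16 h (43.1). The mitotic genes CENPF and NUF2, which act at kinetochores, changed by -2.19 and -1.20 in WT cells from 0 to 16 h, by -0.26 and -0.08 in H460 cells and by 0.46 and 0.37 in K94/171R cells. EXO1, an exonuclease that acts in mismatch repair and at forks, stood at FPKM 138, 106 and 84.9 in H460 cells, 126, 68.0 and 17.4 in WT cells and 74.3, 90.1 and 58.9 in K94/171R cells. CDC20, an activator of the anaphase-promoting complex, stood at FPKM 74.9, 87.2 and 71.6 in H460 cells, 78.0, 48.3 and 11.9 in WT cells and 66.2, 92.0 and 72.2 in K94/171R cells. Both were lowest in WT cells at 16 h within their table. From 0 to 16 h, 6 of the 8 genes fell by at least 1 in WT cells, against 20.9% of the genes that reached FPKM 1 there, and from 8 to 16 h 5 of 8 did, against 15.0%. None of the 8 fell by 1 from 0 to 16 h in H460 cells, against 0.699%, or in K94/171R cells, against 1.27%. FPKM summed to 554359, 627094 and 780952 at 0, 8 and 16 h in WT cells and to 595679, 590682 and 641519 in H460 cells. The changes of these lines were not rescaled to the same sum, which would make the WT changes from 0 to 16 h lower still. The difference between the lines was not tested, with 1 library per line and time.

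**Figure D5:**
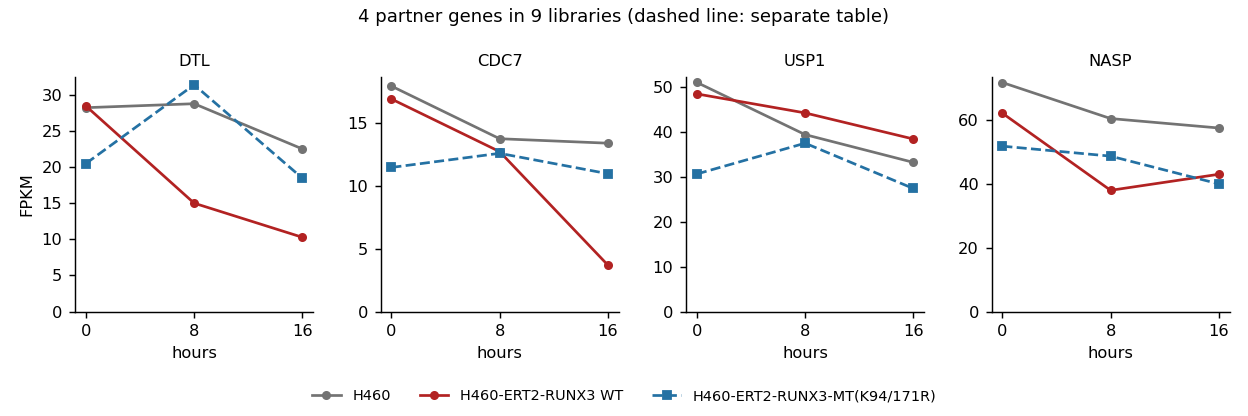
FPKM of DTL, CDC7, USP1 and NASP against hours in H460 (grey), H460-ERT2-RUNX3 WT (red) and K94/171R cells (blue, dashed, from a separate table), with 1 point per library. CDC7 and DTL end at FPKM 3.70 and 10.3 in WT cells, while NASP and USP1 end there at 43.1 and 38.4.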

How the data were processed

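RNA from 3 lines at 3 times was sequenced as 9 libraries made with a stranded mRNA kit, 1 per condition, so no comparison has replicates. Per the submitters' processing notes, STAR 2.5.0 and Cuffdiff 2.2.1 with the genome hg19 were used, and the authors deposited FPKM per gene in 2 tables normalized separately, of 19869 genes (K94/171R) and 24331 genes. The gene annotation release and strand setting are not given in the sources used here. Groups and times came from the sample titles. One sheet of the supplementary data heads the last K94/171R column 24 h, and the labels' 16 h was used.

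Ensembl identifiers without version were matched to symbols for 19494 genes. Log2 changes used a pseudocount of 0.05 FPKM. Genes that reached FPKM 1 in either library compared served as background, and a change of 1 on the log2 scale counted as past the threshold. Identifiers of the other table were paired with symbols through the supplementary data for 1144 loci. Of these, 787, 791 and 785 had FPKM above 0 in H460 cells at 0, 8 and 16 h. All of those stood at a constant ratio (within 1%) to the deposited values. The H460-ERT2-RUNX3 WT values were not checked in this way. Positions came from GENCODE lifted to hg19. Python 3.11.15 with pandas 2.3.3 was used. Only the log2 changes and threshold calls were run on simulated data, with large known changes and little noise, so their recovery was easy. The promoter, pairing, list and nearest-pattern steps were not tested in this way. The alternatives were a pseudocount of 1, 2 rescalings, a threshold of 2 and other filters. The genes named were the 10 members, list genes past 1 or with the largest change of their list, list genes read in both tables, RUNX3 and ESR1, and the 5 nearest patterns. GMNN, CDC45 and PCNA were added after their values were seen. The members and lists were chosen with earlier results of these data known.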

Additional observations from a re-analysis of the deposited data

Results flagged for a closer look

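For 3 of the 8 genes read in both tables, a change had the opposite direction in K94/171R and H460-ERT2-RUNX3 WT cells, by at least 0.5 on the log2 scale in each. How common this was among other genes was not computed. In WT cells 15.0% of genes fell and 14.3% rose by at least 1 from 8 to 16 h. From 0 to 8 h DTL changed by 0.61 in K94/171R and by -0.92 in WT cells. From 8 to 16 h CENPF changed by 0.71 and -1.33, and NUF2 by 0.79 and -1.11, in the same order of lines. These differences were not tested, since each line and time has 1 library.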

How the results depend on the processing

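No paired analysis was possible because each condition has 1 library. Of 213 values recomputed under the alternatives, 189 stayed close, within 0.1 on the log2 scale for changes and within 1.5 times for counts and shares. None reversed, but only a log2 change of at least 1 in size could count as reversed. Each rescaling shifts all changes of a comparison by nearly the same amount, here below 0.1, so these changes had to stay close. The filter on low values removed a gene from the list of cyclins, CDKs and CDC25A only, so the other list medians could not move without it. The median changes of the 10 genes ranged from 0.49 to 0.54 from 0 to 8 h, from -1.0 to -0.94 from 8 to 16 h and from -0.45 to -0.36 from 0 to 16 h. With a threshold of 2, the count of licensing genes that fell from 8 to 16 h went to 0. The other values that moved were shares of all genes past the threshold, given here as fell and rose from 0 to 8 h, from 8 to 16 h and from 0 to 16 h. A pseudocount of 1 gave 1.12% and 0.578%, 0.736% and 1.02%, and 0.627% and 0.618%. A threshold of 2 gave 0.471% and 0.142%, 0.115% and 0.372%, and 0.3% and 0.212%. No filter on low values gave 4.53% and 2.77%, 2.95% and 4.53%, and 3.36% and 3.11%. Only genes in the FPKM range of the members, a choice made after seeing the data, gave 0.982% and 0.815%, 1.44% and 0.719%, and 0.623% and 0.652%. The number of reads is unknown, so no counting interval can be given.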

Other observations

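Other cell-cycle genes of K94/171R cells were read from 3 more lists. Of 13 E2F and RB factors none passed 1. Of all genes, 1.27% rose and 2.49% fell by 1 from 0 to 8 h, and 2.66% and 1.53% from 8 to 16 h. The medians of the 13 were 0.31 from 0 to 8 h and -0.39 from 8 to 16 h. E2F1, an activator of licensing genes, stood at FPKM 19.0, 28.1 and 14.4 at 0, 8 and 16 h. TFDP2, a partner of E2F proteins, and RBL2, a repressor in resting cells, were lower at 8 h than at the other times, with changes of -0.72 and 0.62 for TFDP2 and -0.53 and 0.65 for RBL2.

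Of 8 cyclins, CDKs and CDC25A with FPKM of at least 1, 3 fell by at least 1 from 8 to 16 h, against 1.53% of all genes. CCNE2 (FPKM 7.57, 11.0 and 3.98) and CCNE1 (5.93, 7.99 and 3.64) encode the E cyclins that act at entry into S phase, and they changed by -1.46 and -1.12. CDC25A, the phosphatase that activates CDK2, changed by 1.19 from 0 to 8 h and by -1.06 from 8 to 16 h and was the 1 list gene that rose by at least 1 from 0 to 8 h, against 1.27% of all genes. CCNA2 was higher at each later time (32.8, 34.8 and 38.6). The mitotic list showed other values: of 19 genes, 16 were higher at 16 h than at 8 h, against 48.0% of all genes, with a median of 0.35. At 16 h 18 were higher than at 0 h, against 48.2% of all genes, with a median of 0.24. None passed 1 from 0 to 16 h, against 1.47% of all genes that rose and 1.27% that fell. AURKA, a kinase of the spindle poles, stood at FPKM 76.1, 89.7 and 118, and BIRC5 was the 1 gene below its 0 h level.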
